A study of Mus musculus with 8 samples.

Results

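Translation initiation factor genes were examined for nearby SMC1 sites in cultured mouse cortical neurons at rest and after a pulse of NMDA, which activates a class of glutamate receptor that admits calcium. The set holds the 56 protein-coding genes whose symbol begins with Eif and a digit, out of 21900 protein-coding genes in the RefSeq annotation of GRCm38. Its sites were selected on their presence in the deposited peak lists within 10 kb of a gene body. They were called resting-only, shared or NMDA-only by an overlap of at least 1 bp, so these classes are a description and carry no test. Both lists came from chromatin immunoprecipitation followed by sequencing (ChIP-seq) of SMC1, part of cohesin, the ring-shaped complex that holds chromatin loops. All cultures were wild-type neurons from Swiss-Webster embryos of day 16, grown for 13 days in vitro. Resting cultures had no treatment, and NMDA cultures were kept in 50 µM NMDA for 10 min and then in drug-free medium for 50 min. Each condition had 2 ChIP samples, labelled biological replicates, and 2 input samples. The general culture description also names etoposide, which no sample's treatment label carries. Neurons were identified by label alone, since peak lists hold no RNA levels of marker genes.

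Initiation factors bring the small ribosomal subunit, the initiator tRNA and the capped mRNA together. The eIF4F complex binds the cap and unwinds the mRNA, eIF3 bridges it to the ribosome, and eIF2 delivers the initiator tRNA and is recharged by the exchange factor eIF2B. Phosphorylation of eIF2 and of the 4E-binding proteins are the main switches on this step, and in neurons both are known to govern the protein synthesis that lasting synaptic plasticity needs.

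Resting peaks were found near 21 of the 56 genes (37.5%, against 38.2% of all protein-coding genes) and NMDA peaks near 7 (12.5% against 8.94%). Eif4b and Eif4g2 had both (3.57% against 7.27%). Each of these backgrounds lies within the exact 95% interval of the Eif share. The other 5 genes with an NMDA peak were Eif2a, Eif2b3, Eif2b4, Eif3a and Eif5a. An NMDA peak alone was thus found at 8.93%, against 1.66% of all genes. A peak in neither list was the case for 30 genes (53.6% against 60.1%). The 21 genes with a resting peak held 26 peaks, of which 24 were resting-only and 2 shared. The 7 genes with an NMDA peak held 8 peaks, of which 6 were NMDA-only and 2 shared. Shared peaks were thus 7.69% of the resting peaks near Eif genes, against 10.7% of the whole resting list. In the NMDA list they were 25% near Eif genes, against 75.8% of the whole list. These classes chose the sites, so both comparisons, and that of genes with an NMDA peak alone, are a description.

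The RefSeq promoter table of GRCm38.p6 holds 44 of the 56 genes and gives their strand and start. The start lay in a resting peak at 5 of these 44 genes (Eif2ak1, Eif2s1, Eif3f, Eif3g and Eif3m) and in an NMDA peak at 4 (Eif2a, Eif3a, Eif4b and Eif5a), with no gene in both groups. The 150 bases before the start are printed for 3 genes of each group, as examples of starts covered in a single list. Starts lay in 5 of the 24 resting-only and 4 of the 6 NMDA-only peaks. These totals include peaks of genes outside the promoter table, which could not count. They are those of Eif1a, Eif3i, Eif4e1b, Eif4e3 and Eif4ebp1 among resting-only and of Eif2b3 among NMDA-only peaks. The whole lists differed in the same direction by a wider measure, a boundary base of any annotated gene in the peak. This held for 16.7% of all resting-only and 71.0% of all NMDA-only peaks. Capitals mark matches to the motifs described after the sequences.
Eif3a: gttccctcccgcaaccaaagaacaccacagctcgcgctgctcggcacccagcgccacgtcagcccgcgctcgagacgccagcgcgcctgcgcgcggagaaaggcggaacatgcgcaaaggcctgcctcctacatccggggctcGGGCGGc
Eif4b: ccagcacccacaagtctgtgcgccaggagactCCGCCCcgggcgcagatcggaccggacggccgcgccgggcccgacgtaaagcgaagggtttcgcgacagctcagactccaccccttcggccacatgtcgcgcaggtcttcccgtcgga
Eif5a: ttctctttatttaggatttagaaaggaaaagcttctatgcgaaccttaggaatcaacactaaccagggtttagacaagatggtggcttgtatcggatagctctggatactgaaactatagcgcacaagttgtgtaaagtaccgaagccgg
Eif2ak1: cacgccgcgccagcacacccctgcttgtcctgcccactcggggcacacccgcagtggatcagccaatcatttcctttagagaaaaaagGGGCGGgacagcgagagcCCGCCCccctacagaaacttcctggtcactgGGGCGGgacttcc
Eif3f: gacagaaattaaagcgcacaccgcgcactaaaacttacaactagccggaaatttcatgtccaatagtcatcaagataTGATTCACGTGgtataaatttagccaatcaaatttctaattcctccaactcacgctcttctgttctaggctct
Eif3g: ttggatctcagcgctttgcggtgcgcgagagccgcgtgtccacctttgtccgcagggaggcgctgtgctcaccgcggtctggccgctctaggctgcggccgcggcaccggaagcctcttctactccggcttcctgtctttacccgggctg

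The first 3 lie at chr19:60790694-60790843 (minus strand), chr15:102073623-102073772 (plus) and chr11:69921959-69922108 (minus), with starts in an NMDA peak. The others lie at chr5:143817642-143817791 (plus), chr7:108934265-108934414 (plus) and chr9:20898591-20898740 (minus), with starts in a resting peak. For Eif5a, which has several annotated starts, the most upstream is used. Both strands of the 300-base windows, from 250 bases before each start to 50 after it, were searched for 8 motifs. These were GGGCGG (the GC box bound by SP factors), CACGTG (the E-box bound by MYC and USF factors), TGANTCA (AP-1), TGACGTCA (the cyclic AMP response element), AAGATGGC (YY1) and CCGGAAGT (ETS factors). The other two were the palindromic NRF1 site and the CTCF core, the latter read as CC, any 3 bases, AGG, any base and GGC. The E-box and AP-1 matches in the Eif3f sequence overlap.

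GC boxes were the commonest match, in 32 of 44 Eif windows (72.7%) against 46.3% of the windows of all 17492 protein-coding genes in the table. The E-box was in 8 windows (18.2% against 7.91%), the ETS motif in 7 (15.9% against 5.28%), AP-1 in 5 (11.4% against 7.03%) and YY1 in 4 (9.09% against 3.21%). The CTCF core was in 1 Eif window, that of Eif1ax (2.27% against 4.15%), and NRF1 in 1, that of Eif3k (2.27% against 1.33%). The cyclic AMP response element was in 0 windows (2.33% of all). The 9 Eif windows whose start lay in a peak included 6 with a GC box and 0 with the CTCF core. Of all windows with a start in a resting peak, 75.2% held a GC box and 11.2% the CTCF core. With a start in an NMDA peak the shares were 76.8% and 11.4%. A GC box was also in 74.3% of the 35 Eif windows without a peak at the start. Median GC content was 61.0% over the 44 Eif windows and 56.3% over all windows. It was 43.3% at Eif5a and 72.0% at Eif2a, the lowest and highest of the 4 genes with an NMDA peak at the start.

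Strength of a peak is the authors' −log10 p of peak calling summed over the 2 ChIP replicates. It grows with library depth, which is unknown here, so strengths of the 2 lists are set side by side and no change is read from them. The replicate columns carry no sample number, and they are called first and second as they stand in the lists. The irreproducible discovery rate (IDR) of a peak is the authors' measure of how poorly it repeats between replicates. It was at most about 0.05 for every listed peak, with a highest value of 0.0501 in both lists.

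**Figure D1:**
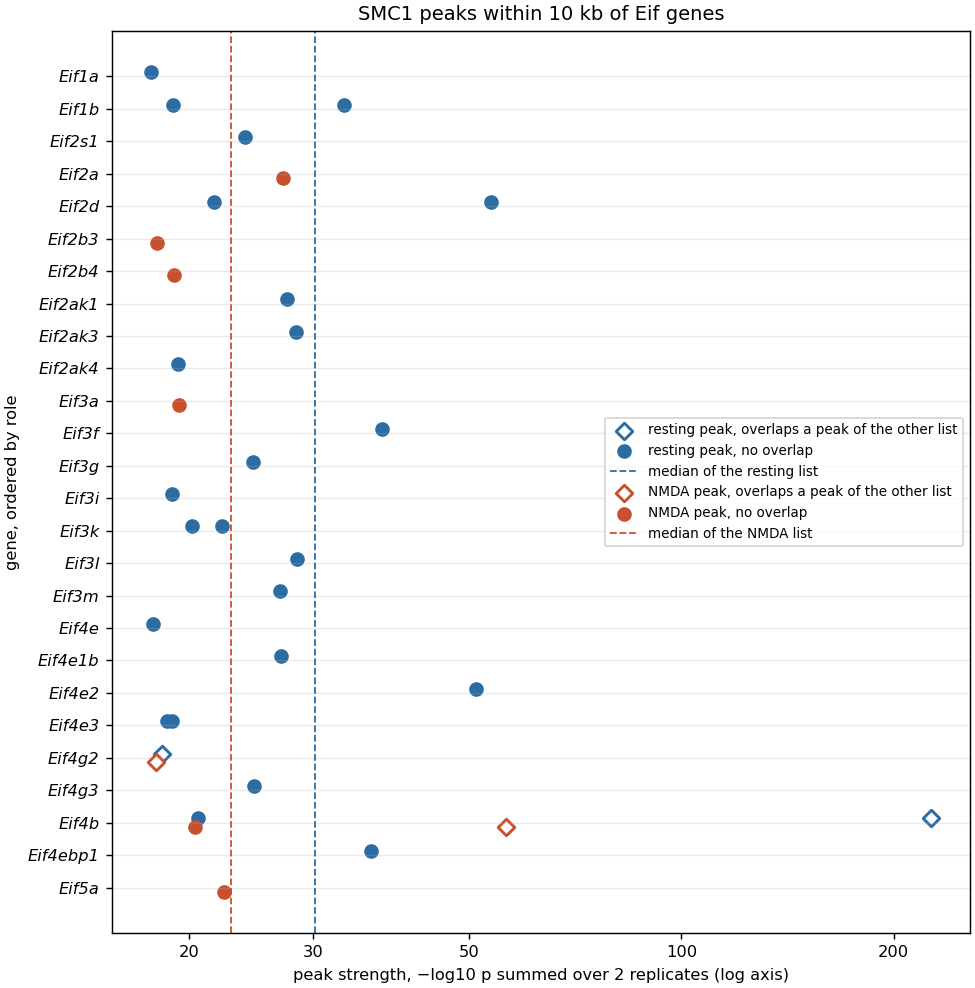
Peak strength (−log10 p summed over 2 replicates, log axis) of each SMC1 peak within 10 kb of an Eif gene, with 1 line per gene ordered by role. Blue marks resting and red NMDA peaks, open diamonds overlap a peak of the other list, and dashed lines give the list medians of 30.2 and 23.0. Most peaks lie left of the median of their list, and the upstream Eif4b site stands apart at 226 and 56.4.

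Cap-binding factors and their partners had the most sites. Of 13 genes, 7 had a resting peak (53.8%, exact interval 25.1 to 80.8%) and 2 an NMDA peak (15.4%, 1.92 to 45.4%). Both intervals hold the shares of all genes, 38.2% and 8.94%. Eif4b encodes a cofactor of the eIF4A helicase and is a target of S6 kinase signalling. Its upstream site was the strongest of the set, on chromosome 15 at 102065515 to 102066162, 7611 bp before the gene body. Replicate values there were 135 and 90.6 at rest, for a strength of 226 and rank 4 of 12359 resting peaks. The NMDA peak over it, at 102065256 to 102066365, had replicate values of 38.2 and 18.2, a strength of 56.4 and rank 16 of 1684. This was the 1 Eif site placed near the top of both lists. Eif4b was the nearest protein-coding gene to it.

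Eif4b also had a second, NMDA-only peak over its start, at 102073515 to 102074165, with replicate values of 7.64 and 12.8. Its strength of 20.4 lay below the list median, and its IDR was 0.0468. No resting peak was listed there, and the nearest was the upstream site 7.35 kb away. A further resting-only peak, inside the neighbouring gene Tns2 and 3056 bp beyond the other end of Eif4b, had replicate values of 8.36 and 12.3.

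The second gene with both peaks was Eif4g2. It encodes DAP5, an eIF4G relative that lacks the cap-protein docking region. Its resting peak (chromosome 7, 111083004 to 111083704) had replicate values of 7.63 and 10.7, and its NMDA peak (111082203 to 111083644) had 9.79 and 8.17. These peaks overlapped each other and a boundary of the gene, and both were among the weakest of their lists, at ranks 11847 and 1670. Their IDR values of 0.0457 and 0.0490 were close to the limit of 0.05. The promoter table holds no entry for Eif4g2, so the boundary was not assigned to the start or the end.

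Other cap-binding genes had resting peaks alone. Eif4e2, which encodes the repressive cap-binding protein 4EHP, had a site 5757 bp beyond its body with replicate values of 21.2 and 29.8. Eif4e itself, the cap-binding subunit of eIF4F, had a weak peak inside the gene 872 bp from its far end (10.4 and 7.44). The scaffold gene Eif4g3 had a peak deep inside its 215 kb body (11.6 and 13.1). Eif4e3 had 2 internal peaks with strengths of 18.9 and 18.6. The peak counted for Eif4e1b (27.0) lay 8833 bp away and was nearest to Tspan17. Eif4a1, Eif4a2, Eif4a3, Eif4g1, Eif4h and Eif4enif1, among them the genes of the helicase subunits and of the main scaffold, had none in either list.

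Of the 3 repressors that compete with eIF4G for eIF4E, Eif4ebp1 had a resting peak 3858 bp from its body. Its replicate values were 9.20 and 27.0, far apart. Eif4ebp2, which encodes the predominant form in brain, and Eif4ebp3 had no peak.

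The genes of the eIF2 branch form groups of 4 to 6, and no group was tested against all genes. For eIF2 and related factors, the resting peak of Eif2s1, the gene of the regulated alpha subunit, covered the start with replicate values of 13.2 and 10.8. It also reached the neighbouring gene Atp6v1d, a subunit of the vacuolar proton pump. Eif2d, whose product can deliver initiator tRNA and recycle ribosomes, had 2 internal resting peaks. The stronger had replicate values of 23.0 and 30.7 and also lay within Rassf5. The weaker had 11.6 and 10.1.

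Eif2a, which encodes an alternative initiator tRNA carrier and not the alpha subunit of eIF2, had the strongest NMDA-only peak of the set (chromosome 3, 58525113 to 58526700). Replicate values were 14.1 and 13.2, the strength 27.2 and the IDR 0.00891. The peak covered the start and also Serp1, a gene for a stress-associated protein of the endoplasmic reticulum. Both gene bodies overlap under the peak, so it cannot be given to either gene alone. The nearest resting peak to this site was 108 kb away. Eif2s2, Eif2s3x and Eif2s3y had no peak in either list.

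None of the 5 genes of eIF2B, the exchange factor, had a resting peak (exact 95% interval 0 to 52.2%). An NMDA peak was found at 2 (5.27 to 85.3%). Both intervals hold the shares of all genes with such peaks, 38.2% and 8.94%. The NMDA peaks at these 2 genes were NMDA-only. Of all genes, 1.66% had an NMDA peak and no resting peak. The eIF2B count rests on 2 genes, and these classes chose the sites. Setting it beside that share is thus a description, and no difference was tested. The peak at Eif2b3, the gene of the gamma subunit, covered a gene boundary with replicate values of 10.0 and 8.03 (chromosome 4, 117019032 to 117019888, IDR 0.0457). The nearest resting peak to it was 15.9 kb away. The peak counted for Eif2b4, the delta subunit, lay 7320 bp from the gene and over a boundary of Gtf3c2, a subunit gene of transcription factor TFIIIC. It stood on chromosome 5 at 31179831 to 31180238, with replicate values of 10.4 and 8.70 and an IDR of 0.0417, and the nearest resting peak was 175 kb away. Without it, 6 Eif genes had an NMDA peak. Eif2b1, Eif2b2 and Eif2b5 had none.

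The eIF2 alpha kinases had resting peaks at 3 of 4 genes (exact 95% interval 19.4 to 99.4%) and an NMDA peak at 0 (0 to 60.2%), intervals that again hold the shares of all genes. At Eif2ak1, the heme-regulated kinase gene HRI, the peak covered the start with replicate values of 19.3 and 8.25. Eif2ak3 (PERK, the sensor of endoplasmic reticulum stress) and Eif2ak4 (GCN2, the sensor of uncharged tRNA) had peaks inside the gene, with 10.4 and 18.01 in the former and 7.25 and 12.04 in the latter. The gene for PKR, Eif2ak2, had none. The 3 genes with a peak had a median length of 84.9 kb, against 32.1 kb for Eif2ak2.

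For eIF3, 6 of 14 genes had resting peaks (42.9%, exact interval 17.7 to 71.1%) and 1 an NMDA peak (7.14%, 0.181 to 33.9%). These intervals also hold the shares of all genes, 38.2% and 8.94%. Peaks at Eif3f, Eif3g and Eif3m covered the start. Replicate values were 9.30 and 28.3 at Eif3f, 12.6 and 12.04 at Eif3g, and 14.1 and 12.8 at Eif3m. The values of Eif3f were thus far apart, and those of the others close. Eif3l had a peak 2869 bp before its body (19.9 and 8.54) and Eif3k a peak inside it (11.5 and 10.8). A second peak counted for Eif3k lay at Actn4 (20.2), and the peak counted for Eif3i (18.9) lay in Dcdc2b, 341 bp from the nearest boundary of Tmem234.

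Eif3a, the gene of the largest eIF3 subunit and scaffold, had the NMDA peak. It was NMDA-only, covered the start (chromosome 19, 60789906 to 60791263) and had replicate values of 9.27 and 10.1 and an IDR of 0.0398. The nearest resting peak to it was 98.3 kb away. Eif3b, Eif3c, Eif3d, Eif3e, Eif3h, Eif3j1 and Eif3j2 had no peak in either list.

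For start codon scanning, Eif1b had 2 resting peaks downstream, with strengths of 33.2 and 18.98, and Eif1a 1 internal peak of 17.7, the weakest of the set. Eif1, Eif1ad and Eif1ax had none. For subunit joining and later steps, Eif5a was the 1 gene with a peak. Its product, the hypusine-bearing factor eIF5A, acts mainly in elongation and termination. The NMDA-only peak (chromosome 11, 69921366 to 69922312) covered the start with replicate values of 14.6 and 7.83 and an IDR of 0.0295, and the nearest resting peak was 11.7 kb away. Eif5, Eif5b, Eif5a2 and Eif6 had no peak, and neither had the helicase-like gene Eif4a3l1.

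**Figure D2:**
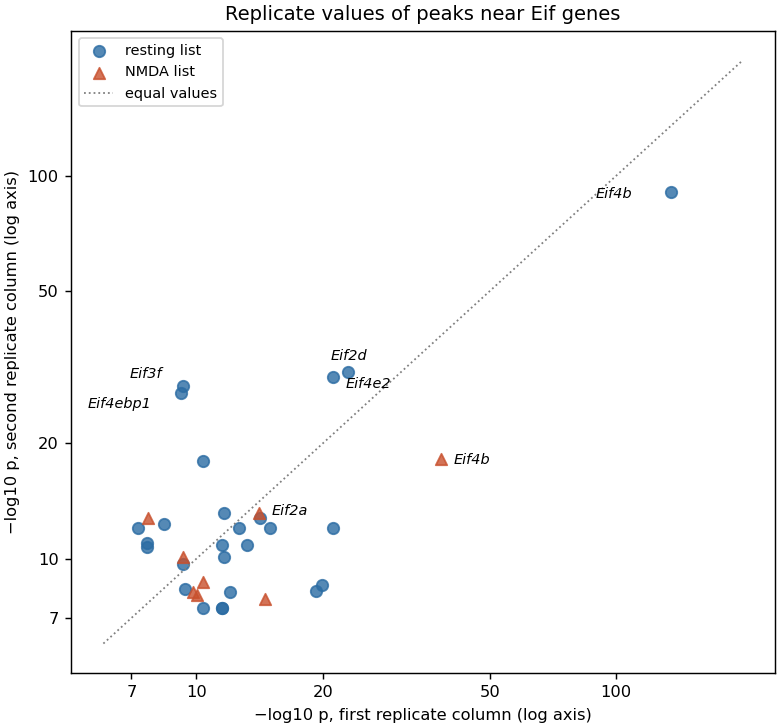
The −log10 p of each peak near an Eif gene in the first (x) and second (y) replicate column, both on log axes, with blue circles for the resting and red triangles for the NMDA list and a dotted line of equal values. Eif3f and Eif4ebp1 lie far above the line, with 9.30 and 28.3 in the former and 9.20 and 27.0 in the latter, while Eif2a lies near it (14.1 and 13.2).

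As a set, Eif sites at rest were weak. Their median strength was 24.3 (range 17.7 to 226), against 30.2 in the whole resting list, and 20 of 26 lay below the list median. Resting peaks within 10 kb of any protein-coding gene had a median of 29.5. With a midpoint within 1 kb of a gene end, the median was 22.1 near Eif genes and 27.6 in the whole list. Away from gene ends the medians were 26.6 and 31.5. An IDR up to 0.01 was reached by 7 of 26 (26.9%), against 56.9% of the whole list and 54.9% of resting peaks within 10 kb of any protein-coding gene. The 8 NMDA peaks had a median strength of 19.9 (17.96 to 56.4), against 23.0 in the NMDA list, and 2 of 8 reached an IDR of 0.01 (25% against 20.8%). The replicate values of a peak differed by more than 2 times at 4 of the 26 resting peaks and 1 of the 8 NMDA peaks. Median width was 577 bp for resting and 1029 bp for NMDA peaks near Eif genes, against 644 and 1033 bp in the lists.

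At the limits used here the share of Eif genes with a resting peak was near that of all genes. It was 37.5% (21 of 56, exact 95% interval 24.9 to 51.5%, which covers counting error over genes only), and 38.2% of all protein-coding genes had one. With peaks of an IDR up to 0.01 it was 12.5% against 23.5%, and with the 1684 strongest resting peaks 3.57% against 6.46%. An NMDA peak was found at 12.5% (7 of 56, 5.18 to 24.1%), against 8.94% of all, a background that lies within the interval. Both peaks were found at 3.57% (2 of 56, 0.435 to 12.3%), against 7.27%. Of the genes with an NMDA peak, 5 of 7 Eif genes had no resting peak within 10 kb (71.4%), against 18.6% of all 1957 such genes. These classes chose the sites, so the last difference is a description. It rests on 7 genes, and Eif2b4 is among the 5. With the resting list reduced to its 1684 strongest peaks, the length of the NMDA list, the counts were 6 of 7 Eif genes and 69.6% of all genes with an NMDA peak. At 50 kb they were 4 of 11 and 8.97%, and at an IDR up to 0.01 1 of 2 and 21.1%. Resting peaks lay just beyond the window of 10 kb at Eif5a (12.1 kb from the gene body) and Eif2b3 (16.3 kb).

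**Figure D3:**
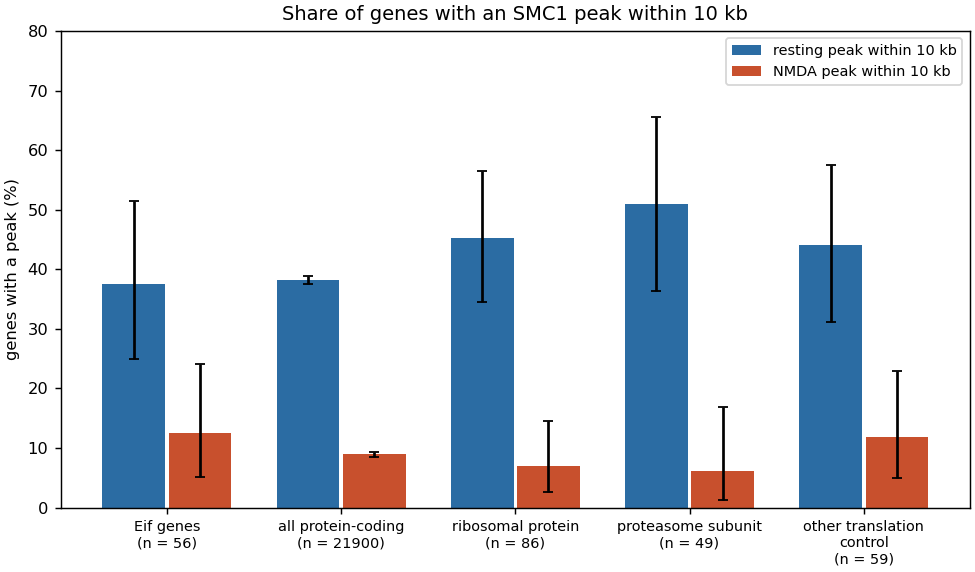
Percentage of genes with a resting (blue) or NMDA (red) SMC1 peak within 10 kb, for Eif genes, all protein-coding genes, ribosomal protein genes, proteasome subunit genes and other translation control genes. Error bars are exact 95% intervals over genes. The Eif bars of 37.5% and 12.5% have intervals that hold the values of all protein-coding genes, 38.2% and 8.94%.

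Other housekeeping sets were counted in the same way. They were matched by symbol pattern. The matches include Rps6kl1 and Psmg4, which encode no ribosomal protein or proteasome subunit and are counted below with a resting peak. Of 86 ribosomal protein genes, 39 had a resting peak (45.3%) and 6 an NMDA peak (6.98%), of which 5 also had a resting peak. Proteasome subunit genes had 25 of 49 (51.0%) and 3 (6.12%), all of the 3 with a resting peak too. Set beside these, the 2 of 7 for Eif genes is lower. Among the other translation control genes, counted below, 4 of the 7 with an NMDA peak also had a resting peak. None of these differences was tested.

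Position within and around the gene was counted in both lists. Of the 26 resting peaks, 6 lay over a boundary base of their Eif gene, 10 were inside the gene away from its boundaries and 10 outside it. Of the 8 NMDA peaks, 6 lay over a boundary base of the Eif gene, 0 elsewhere inside it and 2 outside. Counting any annotated gene, 12 of 26 resting peaks (46.2%) and 7 of 8 NMDA peaks (87.5%) had a midpoint within 1 kb of a gene end, against 29.0% and 61.6% in the whole lists. Within 10 kb of any protein-coding gene the shares were 35.7% and 66.8%. The higher share after NMDA was thus also seen in the whole lists, and no difference between Eif and other peaks was tested.

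Starts of Eif genes lay in resting peaks in 5 of 44 cases (11.4%), near the 11.8% of 17492 genes. In NMDA peaks they lay in 4 of 44 (9.09%) against 4.84%. Midpoints of these 9 start peaks were between 165 bp before and 136 bp after the start. Of all genes with a start in an NMDA peak, 59.3% also had a start in a resting peak, and of the 4 Eif genes 0 did. At Eif4g2 and Eif2b3, which are not in the promoter table, an NMDA peak covered a boundary whose type was not assigned. A resting peak covered the same boundary of Eif4g2. The 0 of 4 thus holds only for genes in the promoter table. It is a description, since the peak classes chose the sites.

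**Figure D4:**
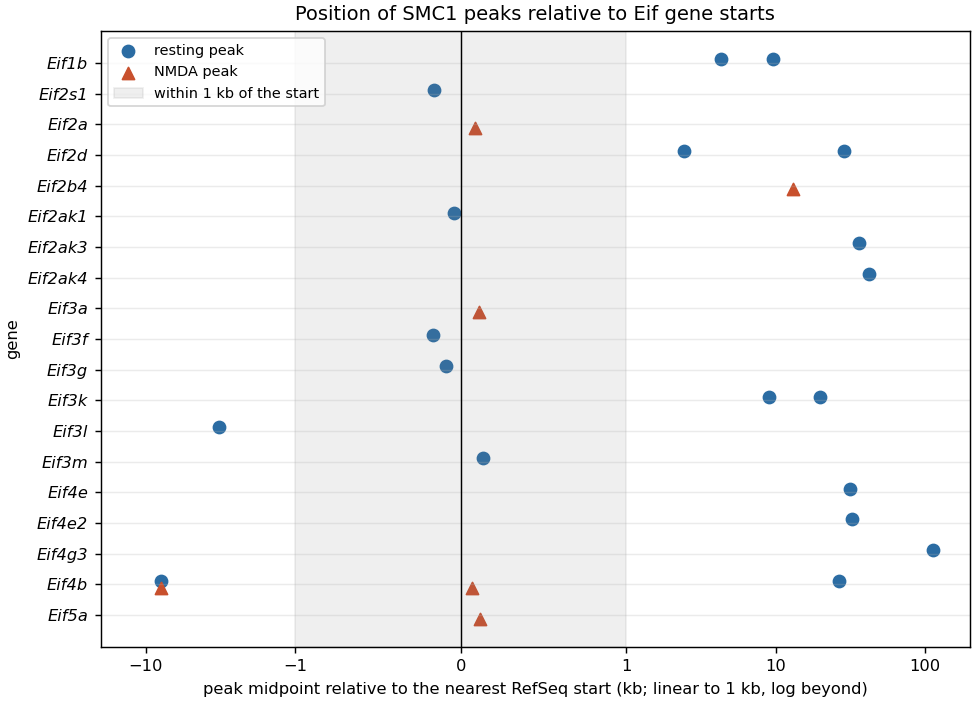
Midpoint of each peak relative to the nearest RefSeq start of its Eif gene, in kb along the direction of transcription (linear to 1 kb, log beyond), for genes in the promoter table. Blue circles are resting and red triangles NMDA peaks, and the grey band spans 1 kb on either side. Of the NMDA triangles, those of Eif2a, Eif3a, Eif5a and 1 of 2 at Eif4b lie in the band, while resting circles are also spread over gene bodies, up to 114 kb at Eif4g3.

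The limit of 10 kb lay within a run of nearby resting sites. Just inside it were the peaks counted for Eif3k at 8.93 kb, Eif4e1b at 8.83 kb and Eif3i at 8.03 kb. Just outside it were those of Eif4a1 at 10.1 kb (strength 29.6), Eif3d at 11.4 kb (28.6) and Eif5a at 12.1 kb (35.5), and 10 genes had their nearest resting peak between 10 and 20 kb away. In the NMDA list the last gene inside was Eif2b4 at 7.32 kb, and the first outside was Eif3g at 15.7 kb. The nearest resting peak was a median of 16.5 kb from an Eif gene, against 24.2 kb for all protein-coding genes on chromosomes with a peak. The nearest NMDA peak was a median of 246 kb away, against 343 kb. Within 50 kb, 43 of 56 Eif genes (76.8%) had a resting peak, against 62.3% of all, and 11 (19.6%) an NMDA peak, against 16.9%.

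**Figure D5:**
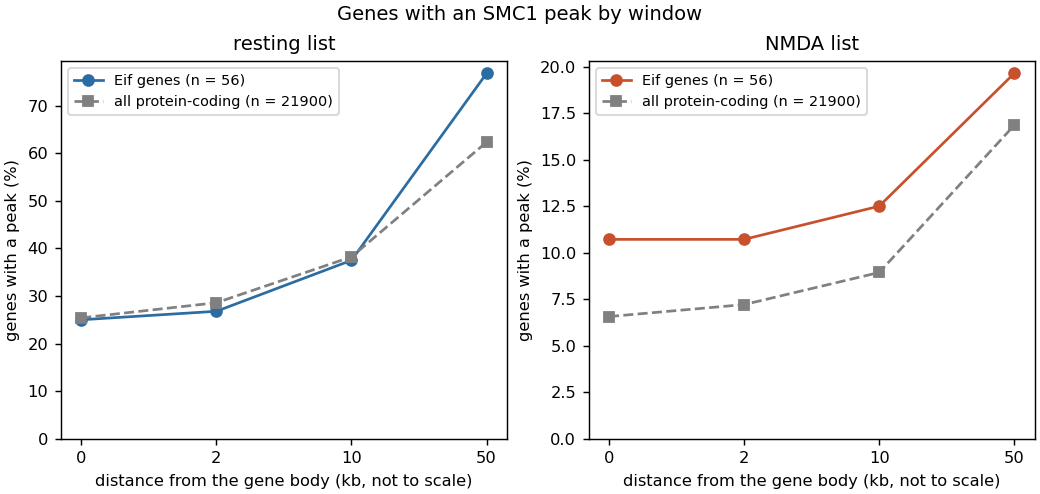
Percentage of genes with an SMC1 peak when the distance from the gene body is 0, 2, 10 or 50 kb (steps not to scale), for Eif genes (coloured) and all protein-coding genes (grey), with the resting list on the left and the NMDA list on the right. At rest the lines run together up to 10 kb (37.5% and 38.2%) and part at 50 kb (76.8% and 62.3%).

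Genes that control translation under other names were counted beside them. Of 59, 26 had a resting peak (44.1%, against 38.2% of all genes), 7 an NMDA peak (11.9% against 8.94%) and 4 both (6.78% against 7.27%). Shares in the groups of 11 to 18 genes that follow were not tested against these backgrounds. Values given are the strength of the strongest peak of a gene in a list. Among mTORC1 and its inputs, 9 of 18 had a resting peak, with Deptor, an inhibitor of mTOR, at 52.1, and 2 an NMDA peak. Rps6kb1, the gene of the S6 kinase that phosphorylates eIF4B, had an NMDA peak alone (20.9). Among cap complex partners, 5 of 15 had a resting and 3 an NMDA peak. Pdcd4, an inhibitor of eIF4A, had both (46.2 and 29.2), as had the poly(A)-binding protein gene Pabpc1 (32.3 and 22.2), and Paip2b had an NMDA peak alone (18.5).

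In the integrated stress response group, 6 of 15 had a resting peak. Nck1, whose product promotes dephosphorylation of eIF2, was the 1 with both (92.0 and 28.4), and Atf4, the transcription factor gene whose mRNA is translated when eIF2 is phosphorylated, had a resting peak of 38.4. Among elongation and termination genes, 6 of 11 had a resting peak, with the eEF2 kinase gene Eef2k at 56.1. Eef1a1, which encodes the main elongation factor, had an NMDA peak alone (31.2).

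The whole lists held 12359 resting and 1684 NMDA peaks, and library depths are unknown from them. With 1 list per condition no p-value is given. A gene missing from either list, the NMDA or the resting one, may have had a peak that did not reach the IDR limit. The 3 Eif genes on the sex chromosomes had no peak, on chromosomes with few listed peaks (114 resting and 5 NMDA on X, 1 and 0 on Y).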

How the data were processed

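The 4 ChIP samples entered through 1 peak list per condition, and values of the input samples were not used directly. The submitters' processing notes name MACS2, BWA, SAMtools, Trimmomatic and FastQC, and the builds GRCm38.p6 and mm10, with neither version nor setting. The authors deposited lists of 20 columns in the layout of the IDR tool, with the −log10 p of each of 2 replicates, their sum on every line (within 0.001) and the −log10 of the IDR. No lines were removed. Depth is unknown, so precision is shown only by the 2 replicate values.

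Peaks were assigned to the 49997 genes of the RefSeq GRCm38.p6 table within 10 kb of the gene body, with Python 3.11.15 and pandas 2.3.3. Distances, overlaps and windows were tested on simulated data. Promoter sequences are from RefSeq (GRCm38.p6). All Eif genes are named: those with an NMDA peak with every peak, others with a resting peak by its strength or replicate values, and those without a peak by role alone. Members and lists were chosen with earlier results of these data known, and no significance test was run. The alternatives tried were the window, the IDR limit, list length, overlap, nearest gene, gene end and replicate column. The RefSeq promoter table has no entry for Eif6, Eif2b3, Eif3i, Eif4e3, Eif4g2, Eif4ebp1, Eif4e1b, Eif3e, Eif3h, Eif4ebp3, Eif3j2 and Eif1a. The values of 1 translation control gene are not reported here.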

Additional observations from a re-analysis of the deposited data

How the results depend on the processing

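Of 72 values recomputed under alternatives, 37 stayed near the first value and 35 moved, none with a test. Near means within 1.5 times for counts and, for medians, within the SD between the replicate columns, 0.0429 at rest and 1.12 after NMDA, so small moves of the resting median are counted. With a window of 2 kb, 17 resting peaks remained, 1 of them shared, 1 gene had both peaks, and the resting median was 24.0. With peaks touching the gene body, the counts were 16 resting peaks, 1 shared and 1 gene with both. At 50 kb, 43 genes had a resting peak, 11 an NMDA peak and 7 both, with 86 resting peaks, of which 4 were shared and 29 at a gene end (median strength 27.9). At an IDR up to 0.01, 7 genes had a resting peak (7 peaks, 1 shared, 2 at a gene end, median 33.2), 2 an NMDA peak (2 peaks, 1 NMDA-only, 1 at a gene end, median 41.8) and 1 both. The share of Eif genes with a resting peak was then 12.5%, against 23.5% of all genes. With the resting list reduced to its 1684 strongest peaks, 2 genes had a resting peak (2 peaks, 1 shared, 0 at a gene end) and 1 had both. With a boundary base inside the peak as the rule for gene ends, 7 resting peaks were at one. The resting median was 23.1 or 23.0 from either replicate column doubled and 18.6 from the lower value doubled, which gave 16.9 after NMDA. Requiring the Eif gene to be the nearest left 19 genes with a resting and 6 with an NMDA peak, and a stricter overlap changed no count. The window, IDR and list-length settings admit more or fewer peaks by construction; for the others the cause was not tested.

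No paired analysis was possible because the replicate columns carry no replicate numbers and no test was run. Leaving out a replicate was not run, since each list holds only peaks found in both.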

Other observations

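None of the 12 noncoding genes with a matching symbol, 11 of them pseudogenes such as Eif3s6-ps1, had a peak within 10 kb in either list. The peak counted for Eif3i and the stronger peak of Eif4e3 had the same 2 replicate values, 11.5 and 7.44.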
